A study of Mus musculus with 18 samples.

Results

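Potassium channel genes are described here in microglia, the resident macrophages of the brain, and in astrocytes, its main glial support cells, of mice in which Tgfb1, which encodes a transforming growth factor beta ligand, was made conditional with a microglial recombinase. Members were all gene symbols made of Kcn, 1 to 3 letters and a number, of which the files held 92 among 35869 gene rows. A member was described where it reached 1 TPM in at least 4 of 17 libraries, which 35 members did. TPM, a library's transcripts scaled to a fixed total after correction for transcript length, is a relative share. Levels can be set beside each other between genes of a library. Between libraries a level also depends on the other transcripts that each library holds. Kcna5, with 5 libraries, was the member nearest to the limit from inside, and Kcnd3 and Kcnmb3, with 3 libraries each, were nearest from outside.

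KO mice were Cx3cr1CreERT2-Tgfb1fl/fl and control mice were Cx3cr1CreERT2, both of C57BL/6 background, and tamoxifen was gavaged into both genotypes 5 times at 180 mg/kg. The groups were KO microglia (n = 4), control microglia (n = 4, animals 1, 2, 4 and 5), KO astrocytes (n = 4) and control astrocytes (n = 5), isolated enzymatically from brain in the presence of inhibitors and sorted by flow cytometry. CreERT2 driven by Cx3cr1 is made by microglia and by other Cx3cr1-expressing macrophages and not by astrocytes, ages were not given in the labels, and the controls carried the recombinase without floxed alleles. A further library, whose title and sample code name different cell types, was in no group and in no comparison.

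Potassium channels set the resting potential of glia and carry potassium out of, or back into, the cell. In astrocytes, inward rectifiers built from Kir4.1 (Kcnj10) take up the potassium that neurons release. In microglia, the two-pore-domain channel THIK-1 (Kcnk13) holds the resting potential, is opened through the ADP receptor P2Y12 and supports process movement and interleukin release, while voltage-gated Kv1.3 (Kcna3), inwardly rectifying Kir2.1 (Kcnj2) and calcium-activated KCa3.1 (Kcnn4) are known from activated cells.

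The libraries matched their labels by markers: the 12 microglia markers summed to between 30176.2 and 33506.9 TPM in KO microglia and between 65461.3 and 69058.3 TPM in control microglia, against at most 859.9 TPM in any astrocyte library. The 14 astrocyte markers, Kcnj10 included, summed to between 22121.8 and 39115.6 TPM in KO astrocytes and between 31037.6 and 35603.0 TPM in control astrocytes. In microglia that sum was at most 645.8 TPM. Astrocyte libraries also held oligodendrocyte markers, with sums between 7385.5 and 18893.6 TPM in KO and between 5127.0 and 7745.7 TPM in control libraries. Tgfb1 had 1.70 ± 0.29 TPM in KO microglia and 3.00 ± 0.27 TPM in control microglia (SD, n = 4 each; exact two-sided permutation p = 0.0286 over 70 assignments, the smallest possible). Its log2 difference in limma was -0.57 (adjusted p = 0.0258), a call lost in 9 of 19 alternative fits (adjusted p between 0.00188 and 0.177). It was at most 0.3 TPM in astrocytes. The Y-linked Ddx3y did not exceed 0.1 TPM in any library of the KO animals or of control animals 1 and 2 (called controls without Y-linked RNA) and reached at least 46.0 TPM in control animals 3, 4 and 5, so results were also computed against each kind of control alone. Because TPM is scaled to a common total, the read depth is unknown.

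Microglia and astrocytes differed in both the amount and the kind of potassium channel RNA. All 92 members together summed to between 70.1 and 96.3 TPM in KO microglia, between 125.1 and 198.6 TPM in control microglia, between 876.7 and 1248.3 TPM in KO astrocytes and between 917.1 and 1255.8 TPM in control astrocytes. The KO microglia sums lay wholly below those of control microglia, while the 2 astrocyte groups overlapped. Between 12 and 15 members reached 1 TPM in KO microglia and between 8 and 14 in control microglia, against between 30 and 33 in KO astrocytes and between 26 and 31 in control astrocytes. In control microglia 3 genes, Kcnd1, Kcnk13 and Kcnk6, led with overlapping values, and each exceeded every other member in all 4 libraries. In KO microglia Kcnk13 and Kcnk6 led and overlapped each other, Kcnj2 came next, and Kcnd1 was seventh by mean. In both astrocyte groups Kcnk1 stood above all other members, with no overlap with the next.

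**Figure D1:**
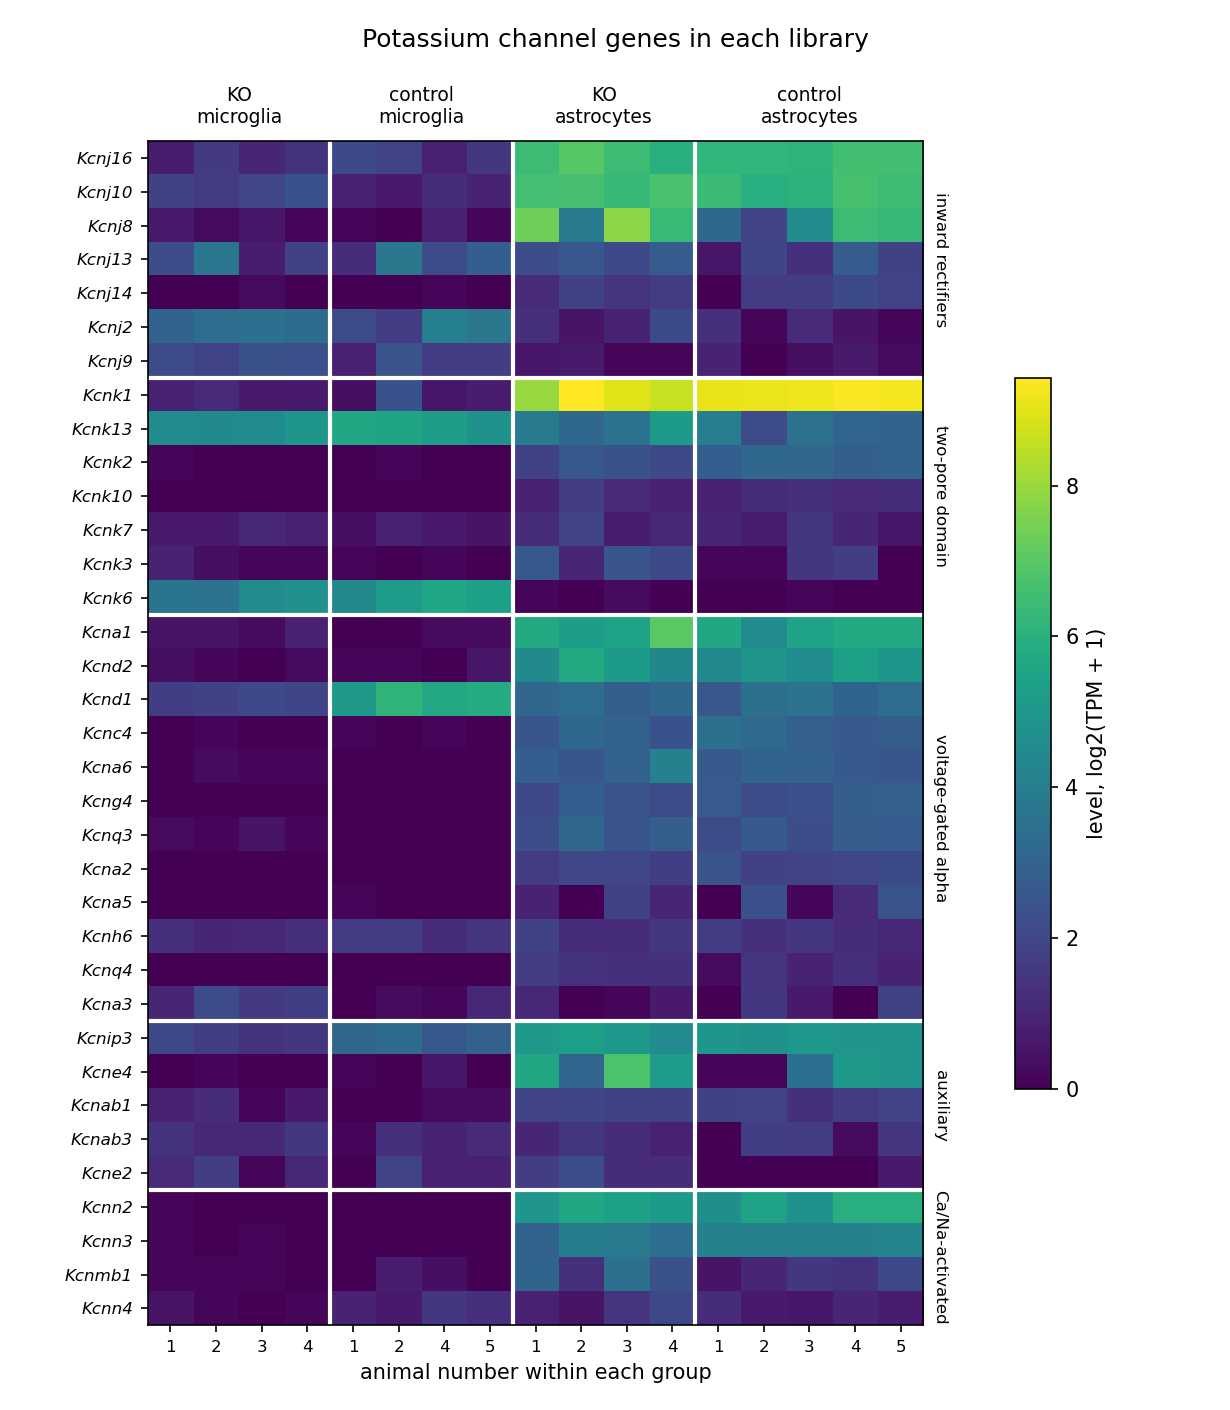
Level of each of the 35 described potassium channel genes, as log2(TPM + 1), in each of the 17 libraries, with genes in rows by class and libraries in columns by group. The bright rows of astrocytes (Kcnk1, Kcnj10, Kcnj16) are dark in microglia, and Kcnk6 shows the opposite pattern. The Kcnd1 row is brightest in control microglia, dimmer in astrocytes (4.9 to 11.2 TPM) and dimmest in KO microglia (2.4 to 3.2 TPM).

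By class, 12 of 40 voltage-gated alpha subunits, which form the pore, were described, 5 of 11 auxiliary subunits, 7 of 15 inward rectifiers, 7 of 14 two-pore-domain channels and 4 of 12 calcium- or sodium-activated channels and their subunits. The other 57 members were low throughout, and the highest value of any of them was 3.7 TPM, of Kcnj3 in KO astrocyte library 1. Kcnma1, the pore of the large-conductance calcium-activated channel, was among these, with at most 0.1 TPM in every library of KO microglia, control microglia, KO astrocytes and control astrocytes.

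Control microglia were first set against control astrocytes to show where each channel is expressed. Of 27 members tested, 23 passed an adjusted p under 0.05 (limma on log2(TPM + 1), Benjamini-Hochberg over all genes tested), 4 higher and 19 lower in microglia. Of all 15332 genes tested 65.7% passed, 26.2% as higher and 39.5% as lower in microglia (4016 and 6062 genes, or 5534 and 4850 with quantile normalization), so the share called among the members is to be read against a high background. The median log2 difference was -2.06 over the tested members and -0.19 over all genes. In 21 members the groups did not overlap, 4 higher and 17 lower in microglia, which held for 56.4% of all genes (22.6% higher and 33.8% lower). In these libraries 16 members reached 1 TPM in 1 cell type alone, so that their passing the filter already made the groups differ. Of the members given with values in this comparison, these were Kcnk6, in microglia, and Kcnk2, Kcnd2, Kcna1, Kcnn2, Kcnn3 and Kcnj8, in astrocytes. Their adjusted p is thus no support for a difference beyond that filter.

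The inward rectifiers of potassium uptake were far lower in microglia than in astrocytes. Kcnj10 (Kir4.1; GRCm38 chr1:172341210-172374085, plus strand) had 0.8, 0.6, 1.3 and 0.9 TPM in control microglia, against 85.8, 60.9, 66.9, 101.4 and 86.7 TPM in control astrocytes, a log2 difference of -5.41 (SE 0.18, adjusted p = 1.57e-09). Kcnj16 (Kir5.1, which joins Kir4.1 in mixed channels; chr11:110968033-111027968, plus strand) had 3.2, 2.7, 0.8 and 1.9 TPM in control microglia, against 72.4, 73.0, 68.8, 95.3 and 93.7 TPM in control astrocytes. Its log2 difference was -4.75 (SE 0.24, adjusted p = 3.32e-08). Both genes were separated between the cell types in every library, and in control astrocytes their levels did not differ from each other beyond their spread, at 80.3 ± 16.4 TPM for Kcnj10 and 80.6 ± 12.8 TPM for Kcnj16 (SD, n = 5). Kcnj2 (Kir2.1; chr11:111066164-111076821, plus strand) went the other way, with 3.4, 2.3, 15.6 and 12.5 TPM in control microglia, against 1.5, 0.1, 1.2, 0.4 and 0.1 TPM in control astrocytes (log2 difference 2.27, SE 0.50, adjusted p = 0.00239).

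Among the two-pore-domain channels, which leak potassium at rest, Kcnk1 and Kcnk2 were lower and Kcnk6 and Kcnk13 higher in microglia, Kcnk13 being above 1 TPM in both cell types. Kcnk1 (TWIK-1; chr8:125995170-126030685, plus strand) had 0.3, 4.2, 0.5 and 0.7 TPM in control microglia, against 549.5, 567.8, 583.1, 658.1 and 633.5 TPM in control astrocytes. This was the largest difference of any member (log2 -8.20, SE 0.35, adjusted p = 8.81e-09), and Kcnk1 alone made up between 52.4% and 61.9% of the members' summed TPM in control astrocytes. Kcnk2 (TREK-1, a stretch- and lipid-sensitive channel; chr1:189207930-189402273, minus strand) was at most 0.1 TPM in control microglia, against 6.1, 8.0, 7.7, 6.2 and 7.1 TPM in control astrocytes (log2 difference -2.96, adjusted p = 2.20e-08). Kcnk6 (TWIK-2, tied in macrophages to potassium efflux; chr7:29221926-29232515, minus strand) had 21.9, 35.0, 45.6 and 39.1 TPM in control microglia, against 0 in 4 control astrocyte libraries and 0.1 TPM in the other, a log2 difference of 5.11 (SE 0.21, adjusted p = 5.58e-09). Kcnk2 and Kcnk6 each passed the filter through 1 cell type alone. Kcnk13 (THIK-1; chr12:99964499-100062682, plus strand) had 47.5, 43.9, 37.2 and 26.7 TPM in control microglia, against 15.5, 3.4, 10.7, 7.4 and 7.0 TPM in control astrocytes (log2 difference 2.12, SE 0.34, adjusted p = 0.000289).

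Of 9 voltage-gated pores tested 7 were lower in microglia and 1, Kcnd1, was higher. Kcnd1 (Kv4.1, a fast-inactivating channel; chrX:7822289-7838280, plus strand) had 32.2, 70.2, 51.0 and 55.2 TPM in control microglia, against 4.9, 10.1, 11.2, 7.3 and 9.3 TPM in control astrocytes (log2 difference 2.47, SE 0.26, adjusted p = 1.25e-05). Its relative Kcnd2 (Kv4.2) had at most 0.5 TPM in control microglia, against between 22.1 and 40.4 TPM in control astrocytes (log2 difference -4.66, adjusted p = 1.26e-08). Kcna1 (Kv1.1) had at most 0.2 TPM in control microglia, against between 22.7 and 53.8 TPM in control astrocytes (log2 difference -5.31, adjusted p = 1.85e-08). Kcnd2 and Kcna1 passed the filter through astrocytes alone. Kv1.1 and Kv1.6 (Kcna6) are also known from oligodendrocytes and myelinated axons, and the 12 oligodendrocyte markers summed to at most 175.2 TPM in control microglia libraries, against between 5127.0 and 7745.7 TPM in control astrocyte libraries. The part of those cells in the Kcna1 level was not tested.

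The calcium-activated channels followed the same line. Kcnn2 (SK2) was listed at 0 in every control microglia library, against between 24.8 and 59.6 TPM in control astrocytes (log2 difference -5.35, adjusted p = 3.35e-08). Kcnn3 (SK3) was also at 0 in control microglia, against 16.5, 16.2, 16.5, 16.2 and 17.5 TPM in control astrocytes, the narrowest spread of any member above 5 TPM there (16.6 ± 0.54 TPM, SD, n = 5). Kcnn4 (KCa3.1, the intermediate-conductance channel; chr7:24370263-24386690, plus strand) had 0.9, 0.6, 1.8 and 1.5 TPM in control microglia, against 1.3, 0.6, 0.5, 1.0 and 0.7 TPM in control astrocytes, which overlapped (log2 difference 0.26, adjusted p = 0.306). Kcnj8 (Kir6.1, the pore of ATP-sensitive channels in pericytes and smooth muscle) was at most 0.8 TPM in control microglia and varied between 2.7 and 88.0 TPM in control astrocytes (log2 difference -4.21, SE 0.86, adjusted p = 0.00147), a spread taken up below with the markers of vessel wall cells. Kcnn2, Kcnn3 and Kcnj8 passed the filter through astrocytes alone.

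**Figure D2:**
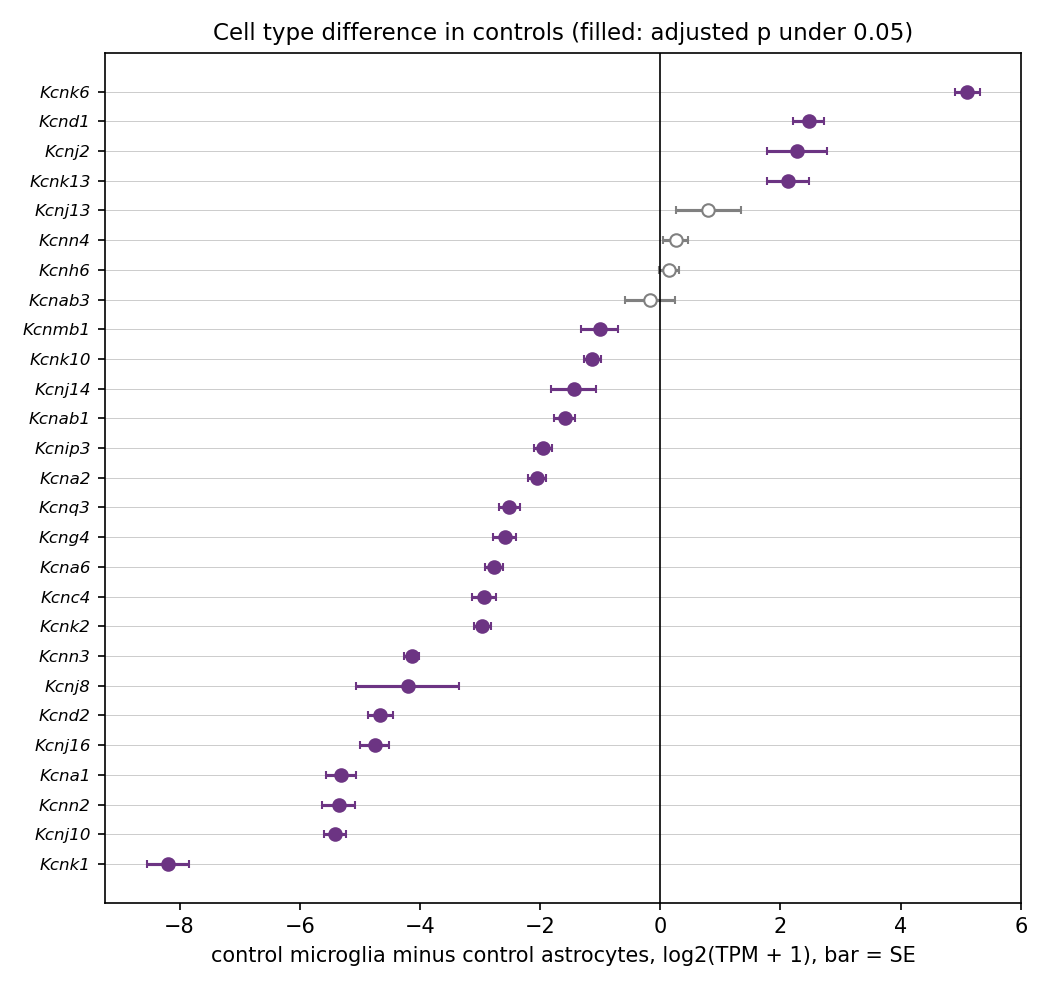
Log2 difference of each tested potassium channel gene, control microglia minus control astrocytes, on the log2(TPM + 1) scale, with bars for the SE and filled points for adjusted p under 0.05. Kcnk6, Kcnd1, Kcnj2 and Kcnk13 lie right of 0 and 19 filled genes lie left of it, down to Kcnk1 at -8.20.

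Other genes of potassium handling were counted against the 65.7% of all genes that passed (39.5% lower and 26.2% higher in microglia). Of 12 genes of potassium and water clearance, 11 were lower in control microglia than in control astrocytes and none higher, with Slc1a2, a glutamate transporter, at 0.325 ± 0.126 TPM in control microglia (SD, n = 4) and 340 ± 24.1 TPM in control astrocytes (SD, n = 5). Slc1a2, too, passed the filter through astrocytes alone. Of 9 tested subunits of the sodium-potassium pump 6 were lower and 1 higher in control microglia, a share close to that of all genes. Of 5 tested cation-chloride cotransporters 3 were higher and 1 lower in control microglia. Of 13 tested genes of purinergic input and the inflammasome 12 were higher in control microglia, P2ry12 among them with 3747 ± 273 TPM in control microglia and 11.3 ± 2.53 TPM in control astrocytes.

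In microglia, the comparison of genotypes asks how cells whose Tgfb1 alleles were floxed differ from controls. Of 13 members tested, 6 passed the threshold (28.4% of all 13054 genes tested did): Kcnj10 and Kcna3 rose (14.2% of all genes rose), and Kcnd1, Kcnip3, Kcnk6 and Kcnk13 fell (14.2% of all genes fell). The 22 described members that were not tested reached 1 TPM in fewer than 4 of the 8 microglia libraries. Values of KO and control microglia did not overlap in 3 of the 13, Kcnj10, Kcnd1 and Kcnip3, against 30.6% of all genes. The median log2 difference was -0.31 over the tested members and 0.00400 over all genes.

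Kcnd1 had the largest change. It had 2.4, 2.5, 3.2 and 2.9 TPM in KO microglia, against 32.2, 70.2, 51.0 and 55.2 TPM in control microglia. Every KO library lay below every control library, and the KO values varied little. The log2 difference was -3.78 (SE 0.22, adjusted p = 2.11e-06), and the call held in all 20 alternative fits. The gene lies on chromosome X, and its level was 32.2 and 70.2 TPM in the controls without Y-linked RNA and 51.0 and 55.2 TPM in those with it. Kcnip3 (chr2:127456498-127522094, minus strand) encodes KChIP3, also called DREAM, a calcium-binding protein that joins Kv4 channels and also represses transcription. It had 3.1, 2.4, 1.6 and 1.9 TPM in KO microglia, against 7.7, 8.8, 5.1 and 6.5 TPM in control microglia, again without overlap (log2 difference -1.30, SE 0.21, adjusted p = 0.00148; called in all 20 alternative fits). The other Kv4 pore, Kcnd2, was at most 0.3 TPM in KO microglia and at most 0.5 TPM in control microglia.

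Kcnk13 and Kcnk6, the other leading channels of control microglia, fell by smaller amounts. Kcnk6 had 11.6, 11.2, 22.4 and 26.4 TPM in KO microglia, against 21.9, 35.0, 45.6 and 39.1 TPM in control microglia, so KO libraries 3 and 4 overlapped control library 1. Its log2 difference was -0.99 (SE 0.31, adjusted p = 0.0413). Kcnk13 had 22.6, 21.3, 22.8 and 29.7 TPM in KO microglia, against 47.5, 43.9, 37.2 and 26.7 TPM in control microglia, where control library 5 lay within the KO values (log2 difference -0.65, SE 0.19, adjusted p = 0.0301). Both calls were close to the threshold. Kcnk6 was called in 12 of 20 alternative fits and lost without a filter or a variance trend, and Kcnk13 was called in 8 of 20 and lost without a filter, with median-of-ratios scaling, with quantile normalization and in 1 fit over all groups. Leaving out 1 library at a time gave adjusted p between 0.0189 and 0.111 for Kcnk6, lost without KO library 1 or 2 or control library 2, 4 or 5, and between 0.00563 and 0.0799 for Kcnk13, lost without KO library 1, 2 or 3 or control library 1, 2 or 4. Against controls without Y-linked RNA alone Kcnk6 had adjusted p = 0.241 and Kcnk13 0.00717, and against those with it alone Kcnk6 had 0.0275 and Kcnk13 0.169, while both genes kept a negative difference. P2ry12, the receptor upstream of THIK-1, had 262.3, 232.0, 265.4 and 206.2 TPM in KO microglia, against 3684.4, 3440.6, 4100.6 and 3760.7 TPM in control microglia (log2 difference -3.95, adjusted p = 1.92e-08).

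Kcnj10 and Kcna3 rose at low levels. Kcnj10 had 2.5, 2.2, 3.0 and 4.2 TPM in KO microglia, against 0.8, 0.6, 1.3 and 0.9 TPM in control microglia, without overlap (log2 difference 1.05, SE 0.21, adjusted p = 0.00429; called in all 19 alternative fits). Its level in KO microglia remained far below the 79.7 to 104.4 TPM of KO astrocytes. Of 9 tested astrocyte markers outside the module 3 rose and 1, Slc1a3, fell, where 28.4% of all genes passed. Aldh1l1 had between 1.8 and 2.8 TPM in KO microglia, against at most 0.4 TPM in control microglia, and Aldoc had between 24.1 and 36.4 TPM in KO microglia, against between 8.7 and 16.9 TPM in control microglia. Aldh1l1, counted among the 3, passed the filter through its KO libraries alone, which by itself keeps its groups apart. The 14 markers, Kcnj10 included, summed to between 100.7 and 124.3 TPM in KO microglia and between 305.4 and 645.8 TPM in control microglia, a sum led by Slc1a3, while Aqp4, the astrocytic water channel, was at most 0.3 TPM in KO microglia and at most 0.5 TPM in control microglia. The part of RNA from astrocytes in the Kcnj10 result was not tested.

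Kcna3 (Kv1.3; chr3:107036169-107038070, plus strand) had 1.0, 3.4, 2.0 and 2.4 TPM in KO microglia, against 0, 0.2, 0.1 and 1.1 TPM in control microglia, with control library 5 just above KO library 1 (log2 difference 1.25, SE 0.31, adjusted p = 0.0132). Its call held without any single library and was lost against controls with Y-linked RNA alone (adjusted p = 0.0756). Kcnn4, the calcium-activated channel also known from activated microglia, had lower values in KO cells, with 0.4, 0.1, 0 and 0.1 TPM in KO microglia, against 0.9, 0.6, 1.8 and 1.5 TPM in control microglia, without overlap. Kcnn4 reached 1 TPM in too few microglia libraries to be tested, and in a fit without the filter its log2 difference was -0.91 (SE 0.20, adjusted p = 0.0170).

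The remaining 7 tested members did not pass. Kcnj2 had 7.1, 9.4, 9.8 and 9.1 TPM in KO microglia, against 3.4, 2.3, 15.6 and 12.5 TPM in control microglia (log2 difference 0.37, SE 0.49, adjusted p = 0.625). The KO values lay between the 2 kinds of controls: against the controls without Y-linked RNA Kcnj2 was higher in KO microglia by 1.36 (adjusted p = 0.00417), and against those with it the difference was -0.61 (adjusted p = 0.0389). Kcnj16 had 0.7, 2.0, 1.0 and 1.6 TPM in KO microglia, against 3.2, 2.7, 0.8 and 1.9 TPM in control microglia (log2 difference -0.40, adjusted p = 0.368). Kcnj9 (Kir3.3, a subunit of G protein-gated channels) had 3.5 ± 0.594 TPM in KO microglia and 2.5 ± 1.57 TPM in control microglia (SD, n = 4 each; adjusted p = 0.318). It is transcribed away from Kcnj10 on chromosome 1, with 11891 bases between the 2 start sites.

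Kcnj13 (Kir7.1) and Kcne2, both known from the choroid plexus, varied widely within groups. Kcnj13 had 3.7, 12.1, 0.7 and 2.6 TPM in KO microglia, against 1.3, 12.7, 3.4 and 6.1 TPM in control microglia. Choroid plexus markers (6 genes, chosen after the values were seen) summed to 281.3, 450.5, 5.7 and 440.2 TPM in KO microglia, against 16.4, 1264.9, 182.2 and 503.7 TPM in control microglia, and KO library 3 and control library 1 had the lowest values of their groups in the sum, in Kcnj13 and in Kcne2. Control library 2, highest in all 3, also had 4.2 TPM of Kcnk1, against at most 0.7 TPM in the other control microglia. Its ependymal markers summed to 113.1 TPM, against at most 15.5 TPM in the other control microglia and at most 24.8 TPM in KO microglia. The part of either kind of cell in these levels was not tested. Kcnh6 and Kcnab3 kept within a range of 0.1 to 2.1 TPM in all microglia libraries.

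**Figure D3:**
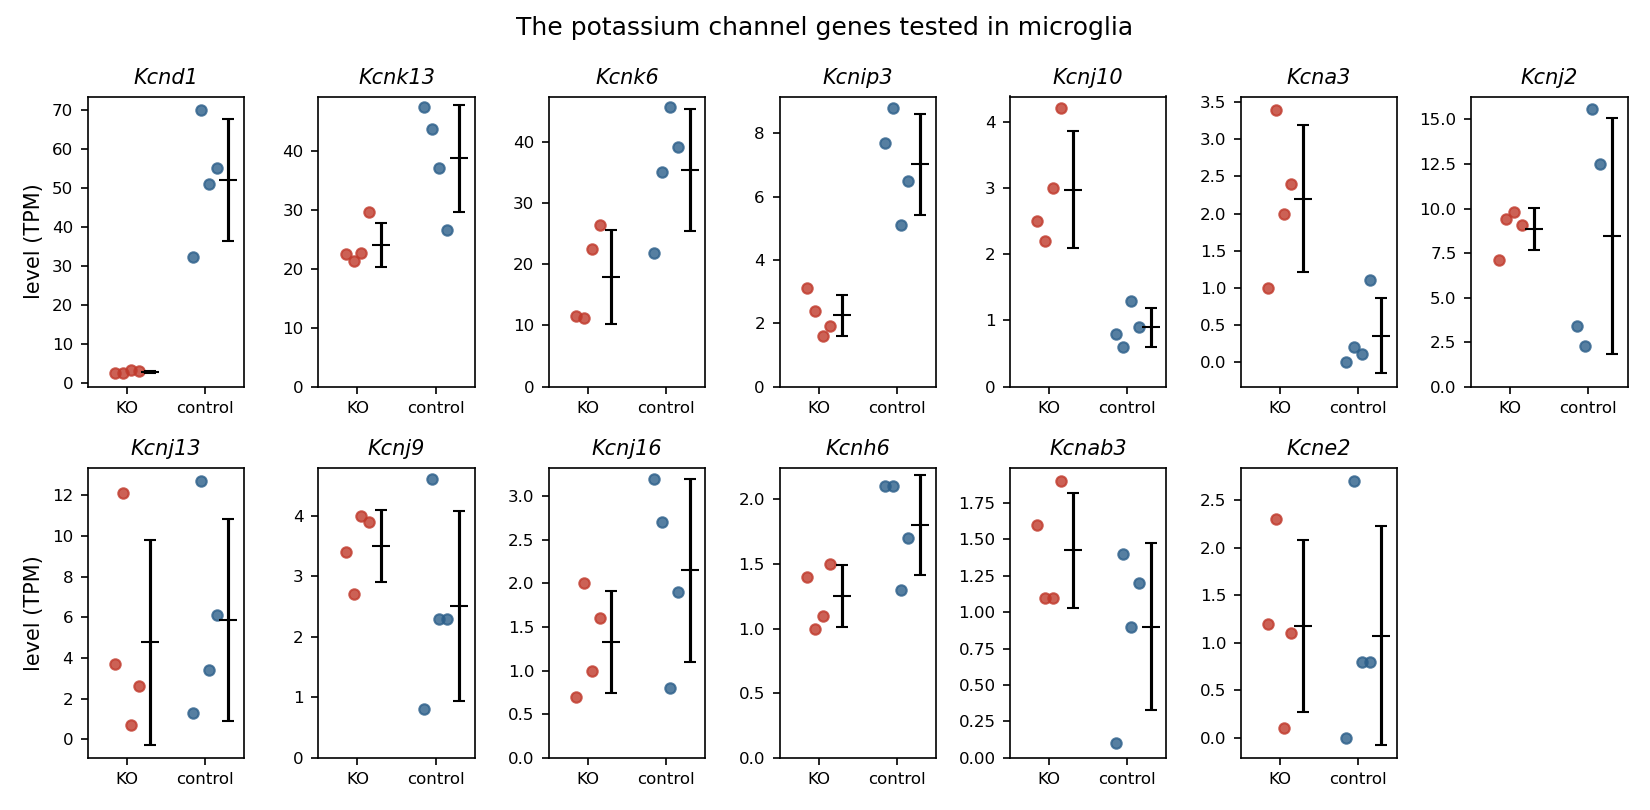
Level in TPM of the 13 potassium channel genes tested in microglia, with 1 point per library, KO (red, n = 4) left of control (blue, n = 4), and bars for mean and SD. KO and control points are apart for Kcnd1, Kcnip3 and Kcnj10, and the Kcnj2 controls split into a low and a high pair around the KO values.

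The promoters of the 4 called genes with an entry in RefSeq (26 of the 35 described members have one) are given because these genes moved in opposite directions in the same cells. Each runs from 250 bases before to 50 bases after the start site on its own strand, 300 bases in GRCm38.p6, and of the 3 Kcnip3 entries the one at the annotated gene start is shown. Capitals mark matches, on either strand, of GAGGAA (the core bound by the macrophage factor PU.1) and CAGACA (an element bound by SMAD factors, the mediators of TGF-beta). The interferon-stimulated response element was searched as well.
Kcnj10, chr1:172340960-172341259, plus strand: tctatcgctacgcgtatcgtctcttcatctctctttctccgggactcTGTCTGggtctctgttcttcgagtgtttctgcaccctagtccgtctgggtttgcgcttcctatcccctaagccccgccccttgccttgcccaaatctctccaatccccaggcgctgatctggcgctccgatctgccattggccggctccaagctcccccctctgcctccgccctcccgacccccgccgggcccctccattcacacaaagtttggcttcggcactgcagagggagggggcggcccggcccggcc
Kcna3, chr3:107035912-107036211, plus strand: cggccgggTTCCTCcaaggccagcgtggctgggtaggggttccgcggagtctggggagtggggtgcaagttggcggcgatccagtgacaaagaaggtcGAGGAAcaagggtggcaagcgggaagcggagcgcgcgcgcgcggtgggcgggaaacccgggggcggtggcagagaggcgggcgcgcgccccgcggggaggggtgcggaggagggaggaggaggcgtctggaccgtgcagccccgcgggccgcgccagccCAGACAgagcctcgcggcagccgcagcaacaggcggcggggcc
Kcnip3, chr2:127522045-127522344, minus strand: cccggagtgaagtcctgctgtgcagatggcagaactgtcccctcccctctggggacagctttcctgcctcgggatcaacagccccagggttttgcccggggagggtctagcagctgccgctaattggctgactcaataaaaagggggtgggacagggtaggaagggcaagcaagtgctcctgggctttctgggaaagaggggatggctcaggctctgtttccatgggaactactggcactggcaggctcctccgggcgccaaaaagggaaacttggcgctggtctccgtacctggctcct
Kcnk13, chr12:99964249-99964548, plus strand: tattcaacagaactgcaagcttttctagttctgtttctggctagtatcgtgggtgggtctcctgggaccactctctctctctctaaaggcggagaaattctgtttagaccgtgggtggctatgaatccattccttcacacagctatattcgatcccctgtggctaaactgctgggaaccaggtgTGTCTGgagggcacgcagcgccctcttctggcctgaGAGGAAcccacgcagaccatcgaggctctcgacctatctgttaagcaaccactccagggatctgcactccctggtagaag
GAGGAA was found 2 times in the Kcna3 window and 1 time in that of Kcnk13, and is held by 28.3% of all 32817 promoters. CAGACA was found 1 time each in the windows of Kcnj10, Kcna3 and Kcnk13 and is held by 21.0% of all promoters. No window held the interferon-stimulated response element, found in 3.43% of all promoters, and the Kcnip3 window held none of the 3 motifs.

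Other genes of potassium handling were counted from lists. In microglia 3 of 8 tested pump subunits rose and none fell: Fxyd7 (log2 difference 1.38), Fxyd2 (1.10) and Atp1b3 (0.57). The first 2 were low. Fxyd7 had 1.875 ± 0.954 TPM in KO microglia and 0.075 ± 0.150 TPM in control microglia (SD, n = 4 each). Fxyd7 passed the filter through its KO libraries alone, which by itself keeps its groups apart, so its rise is no support beyond that filter. Fxyd2 had 5.35 ± 0.238 TPM in KO microglia and 2.3 ± 1.58 TPM in control microglia (limma adjusted p = 0.0447). Atp1b3, a beta subunit of the pump, had 64.6, 75.6, 86.5 and 71.2 TPM in KO microglia, against 43.6, 50.7, 48.0 and 56.3 TPM in control microglia. Among 5 tested cation-chloride cotransporters 1 rose, Slc12a7 (log2 difference 0.84, adjusted p = 0.00649). Of 4 tested channel partners and channels with other names 2 fell: Tmem38b, a potassium-permeable channel of the endoplasmic reticulum (-1.13), and Tmem175, a lysosomal potassium channel (-0.44). Of 6 tested clearance partners 2 fell, the glutamate transporter Slc1a3 (-3.42) and glutamine synthetase, Glul (-0.54). Of 14 genes of purinergic input and the inflammasome 4 rose and 5 fell, among them the ATP-gated channel P2rx4 (1.61) and the receptor P2ry13 (-2.43). These counts are to be read against the 28.4% of all genes that passed.

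Several measures separated the same 2 groups. Of 12 microglia markers 10 fell in KO microglia, and of 10 markers of border-associated macrophages, which also make Cx3cr1, 6 rose and 2 fell, with sums between 5933.2 and 6781.5 TPM in KO microglia and between 419.4 and 779.7 TPM in control microglia. None of those 10 markers was at 0 in either group. Of 11 tested immediate-early genes 6 rose and 1 fell, with sums between 1473.2 and 1860.7 TPM in KO microglia and between 692.1 and 1190.1 TPM in control microglia. Of 4 tested neuron markers 2 rose and none fell, with sums between 17 and 73.2 TPM in KO microglia and between 5.1 and 10.3 TPM in control microglia. Of 5 tested markers of monocytes, neutrophils and lymphocytes 1 rose and 3 fell, with sums between 39.1 and 45.1 TPM in KO microglia and between 79.1 and 100.1 TPM in control microglia. All of these counts stand beside the 28.4% of all genes that passed. Transcripts of 13 mitochondrial genes made up between 2.95% and 3.57% of KO microglia libraries and between 2.11% and 2.56% of control libraries. Their part in the channel results was not tested. In such bulk samples fewer cells of a type and less RNA per cell cannot be told apart.

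In astrocytes, which do not make the recombinase, no potassium channel gene passed the threshold between genotypes. Of 32 members tested 0 were called by limma, against 1 of 15231 genes (0.00657%), and 5 members (Kcne2, Kcnk2, Kcnn3, Kcnk3 and Kcnmb1) and 1939 of all genes had an unadjusted p under 0.05. The median log2 difference was 0.15 over the tested members and 0.07 over all genes. Values of KO and control astrocytes did not overlap in 3 members, Kcne2, Kcnk2 and Kcnn3, against 4.4% of all genes. Kcne2 passed the filter through its KO libraries alone, which by itself keeps its groups apart.

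The main channels of potassium uptake overlapped between genotypes. Kcnj10 had 96.2, 99.4, 79.7 and 104.4 TPM in KO astrocytes, against 85.8, 60.9, 66.9, 101.4 and 86.7 TPM in control astrocytes (log2 difference 0.25, SE 0.16, adjusted p = 0.503). Kcnj16 had 87.9, 124.1, 88.0 and 62.9 TPM in KO astrocytes, against 72.4, 73.0, 68.8, 95.3 and 93.7 TPM in control astrocytes (log2 difference 0.14, SE 0.19, adjusted p = 0.772). Kcnk1 had 248.8, 688.8, 495.5 and 399.2 TPM in KO astrocytes, against 549.5, 567.8, 583.1, 658.1 and 633.5 TPM in control astrocytes. Its KO values spread far more widely than those of controls, and KO library 2 lay above all of them (log2 difference -0.48, SE 0.24, adjusted p = 0.426).

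Kcnk2 had 2.6, 5.0, 4.1 and 3.2 TPM in KO astrocytes, against 6.1, 8.0, 7.7, 6.2 and 7.1 TPM in control astrocytes, with all 4 KO libraries below all 5 controls (log2 difference -0.78, SE 0.18, adjusted p = 0.250). A fit over all 4 groups, which estimates the spread over both cell types, called it (adjusted p = 0.0312), and over all alternatives its adjusted p ran between 0.0312 and 0.629. In microglia Kcnk2 had at most 0.1 TPM, where there is almost no spread to estimate. Kcnn3 had 7.1, 15, 13.3 and 9.6 TPM in KO astrocytes, against between 16.2 and 17.5 TPM in control astrocytes, also without overlap (log2 difference -0.57, SE 0.19, adjusted p = 0.330). Kcne2 had 2.3, 3.7, 1.3 and 1.3 TPM in KO astrocytes, against 0 in 4 control libraries and 0.6 TPM in control library 5 (adjusted p = 0.221). Choroid plexus markers summed to 312.1, 406.6, 166.0 and 472.3 TPM in KO astrocytes, against 56.5, 518.0, 30.2, 212.0 and 276.7 TPM in control astrocytes, which overlapped.

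The genes called in microglia overlapped between genotypes in astrocytes. Kcnd1 had 7.6, 9.6, 6.3 and 7.9 TPM in KO astrocytes, against 4.9, 10.1, 11.2, 7.3 and 9.3 TPM in control astrocytes (log2 difference -0.08, SE 0.23, adjusted p = 0.907), and Kcnip3 had 31.6 ± 6.98 TPM in KO astrocytes (SD, n = 4) and 29.7 ± 1.72 TPM in control astrocytes (SD, n = 5; adjusted p = 0.890). Kcnk13 had 14.2, 7.9, 11.1 and 34.6 TPM in KO astrocytes, against 15.5, 3.4, 10.7, 7.4 and 7.0 TPM in control astrocytes (log2 difference 0.80, SE 0.45, adjusted p = 0.462), with KO library 4 far above the rest. Kcnj2 had 1.5, 0.4, 0.9 and 3.3 TPM in KO astrocytes, against 1.5, 0.1, 1.2, 0.4 and 0.1 TPM in control astrocytes (adjusted p = 0.530). Kcnn4 had 0.8, 0.4, 1.7 and 3.1 TPM in KO astrocytes, against 1.3, 0.6, 0.5, 1.0 and 0.7 TPM in control astrocytes (adjusted p = 0.637). Kcna3 had 1.1, 0, 0.1 and 0.6 TPM in KO astrocytes, against 0, 1.9, 0.6, 0 and 2.6 TPM in control astrocytes, too low to be tested, and Kcnk6 was at most 0.2 TPM in KO astrocytes and at most 0.1 TPM in control astrocytes.

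Channel genes of vessel wall cells varied widely between astrocyte libraries. Kcnj8 had 161.0, 13.6, 223.2 and 83.4 TPM in KO astrocytes, against 8.2, 2.7, 22.4, 88.0 and 79.1 TPM in control astrocytes (log2 difference 1.87, SE 1.06, adjusted p = 0.467). Kcne4, an auxiliary subunit that dampens Kv1 channels, had 47.8, 7.5, 107.8 and 35.0 TPM in KO astrocytes, against 0.1, 0.1, 9.8, 32.9 and 29.6 TPM in control astrocytes (log2 difference 2.41, SE 1.19, adjusted p = 0.419). In both genes KO libraries 1 and 3 were highest and KO library 2 lay among the lower controls. Kcnmb1, the smooth muscle subunit of large-conductance channels, had 7.2, 1.5, 10.2 and 4.1 TPM in KO astrocytes, against 0.4, 1.0, 1.9, 1.6 and 3.2 TPM in control astrocytes (adjusted p = 0.338), while the pore gene Kcnma1 was at most 0.1 TPM. Abcc9, which encodes the receptor that pairs with Kir6.1 in these cells, had 9.2, 0.8, 12.7 and 5.4 TPM in KO astrocytes, against 0.7, 0.1, 1.2, 5.2 and 4.8 TPM in control astrocytes.

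The same libraries stood apart in the 13 markers of mural cells and fibroblasts, which summed to 6352.9, 769.3, 9583.9 and 3619.9 TPM in KO astrocytes, against 454.3, 207.1, 1067.4, 3181.7 and 2883.5 TPM in control astrocytes. None of the 12 tested markers was called, and none of the 13 was at 0 in either group. With KO libraries 2 and 4 alone the log2 difference of Kcnj8 was 0.65 and that of Kcne4 1.38, and against the controls with Y-linked RNA alone they were 0.57 and 0.67. The left-out KO libraries 1 and 3 were the highest in both genes, and the left-out control libraries 1 and 2 the lowest. Smaller differences were thus fixed by the choice of libraries, and KO library 4 still had a mural and fibroblast sum above every control. In KO astrocyte library 4 the oligodendrocyte markers summed to 18893.6 TPM, against between 7385.5 and 9738.4 TPM in the other KO astrocyte libraries and between 5127.0 and 7745.7 TPM in control astrocytes. That library was also the highest in Kcna1, at 128.5 TPM against at most 53.8 TPM elsewhere, in Kcna6, at 16.2 TPM against at most 7.1 TPM elsewhere, and in Kcnk13, at 34.6 TPM against at most 15.5 TPM in the other astrocyte libraries. The part of these cells in the channel levels was not tested.

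**Figure D4:**
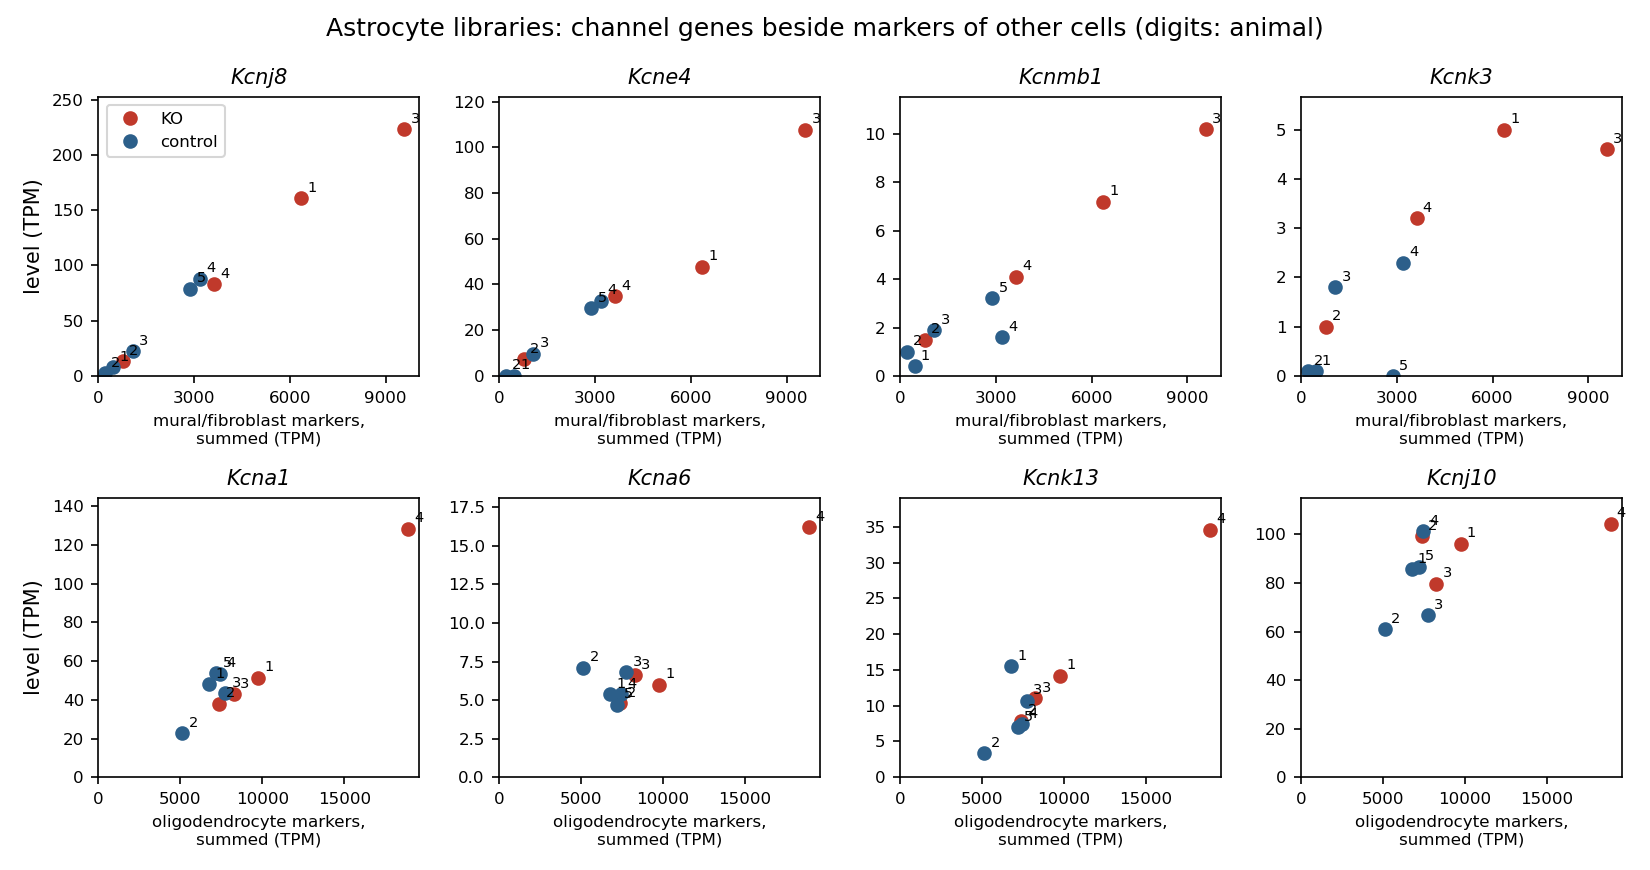
Level in TPM of 8 channel genes in each astrocyte library (vertical) against the summed level of marker genes of other cell types in the same library (horizontal, TPM), KO in red and control in blue, with animal numbers. Kcnj8, Kcne4, Kcnmb1 and Kcnk3 are highest in KO libraries 1 and 3, which have the highest mural and fibroblast sums, and Kcna1, Kcna6 and Kcnk13 are highest in KO library 4, which has the highest oligodendrocyte sum, while Kcnj10 stays between 60.9 and 104.4 TPM.

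No list of potassium handling held a called gene in astrocytes, with 12 clearance partners, 9 pump subunits, 4 cotransporters and 7 channel partners tested. The smallest p among the clearance partners belonged to Mlc1, an astrocyte endfoot protein (log2 difference -0.39, adjusted p = 0.338), and among the cotransporters to Slc12a2 (0.81, adjusted p = 0.353).

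Whether the genotype effect itself differed between the cell types was tested over all 17 libraries as the KO effect in microglia minus that in astrocytes. Of 35 members 6 passed, 2 with a positive and 4 with a negative difference, against 15.5% of all 17087 genes (6.63% positive and 8.87% negative). This test shares its samples with the comparisons within each cell type. Kcnd1 differed by -3.70 on the log2 scale (SE 0.32, adjusted p = 6.01e-07) and Kcnip3 by -1.36 (SE 0.25, adjusted p = 0.00123), both called in all 29 alternative fits, block by animal included. Kcnj10 differed by 0.80 (SE 0.25, adjusted p = 0.0413), a call kept with the block by animal (adjusted p = 0.0233) and in 6 of 17 fits without 1 library (KO microglia 1 or 2, control microglia 4, KO astrocytes 4, or control astrocytes 2 or 3). Over all 29 alternative fits the Kcnj10 call was lost in 17, among them those without a filter, with quantile normalization and with either kind of control alone. Kcnk6 differed by -1.06 (SE 0.35, adjusted p = 0.0485), a call kept in 3 of 17 fits without 1 library (KO microglia 3 or 4 or control microglia 1 left out). Kcnk6 had at most 0.2 TPM in every KO and control astrocyte library, so this difference holds its microglial fall over again. Kcnn4 differed by -1.27 (SE 0.39, adjusted p = 0.0342), a call kept in 7 of the 17 fits (KO microglia 1, control microglia 1 or 2, KO astrocytes 1 or 2, or control astrocytes 1 or 4 left out).

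Kcnk2 differed by 0.78 (SE 0.22, adjusted p = 0.0201), a call kept without any single library. It had at most 0.1 TPM in every KO and control microglia library, so this difference holds the lower astrocyte level with its sign turned. In astrocytes alone the same difference was not called. The fit over all libraries takes its spread over both cell types, the microglial values near 0 included, and adjusts over another set of genes. With the block by animal Kcnk2 had adjusted p = 0.0772, Kcnn4 0.0820 and Kcnk6 0.0708, and Kcnk13 came under the threshold at 0.0487 (log2 difference -1.54, SE 0.44). Without that block Kcnk13 differed by -1.44 (adjusted p = 0.0837), and Kcna3 differed by 1.6 (adjusted p = 0.0669). Kcnj16 (-0.54), Kcnj2 (-0.19) and Kcnk1 (0.28) did not pass.

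**Figure D5:**
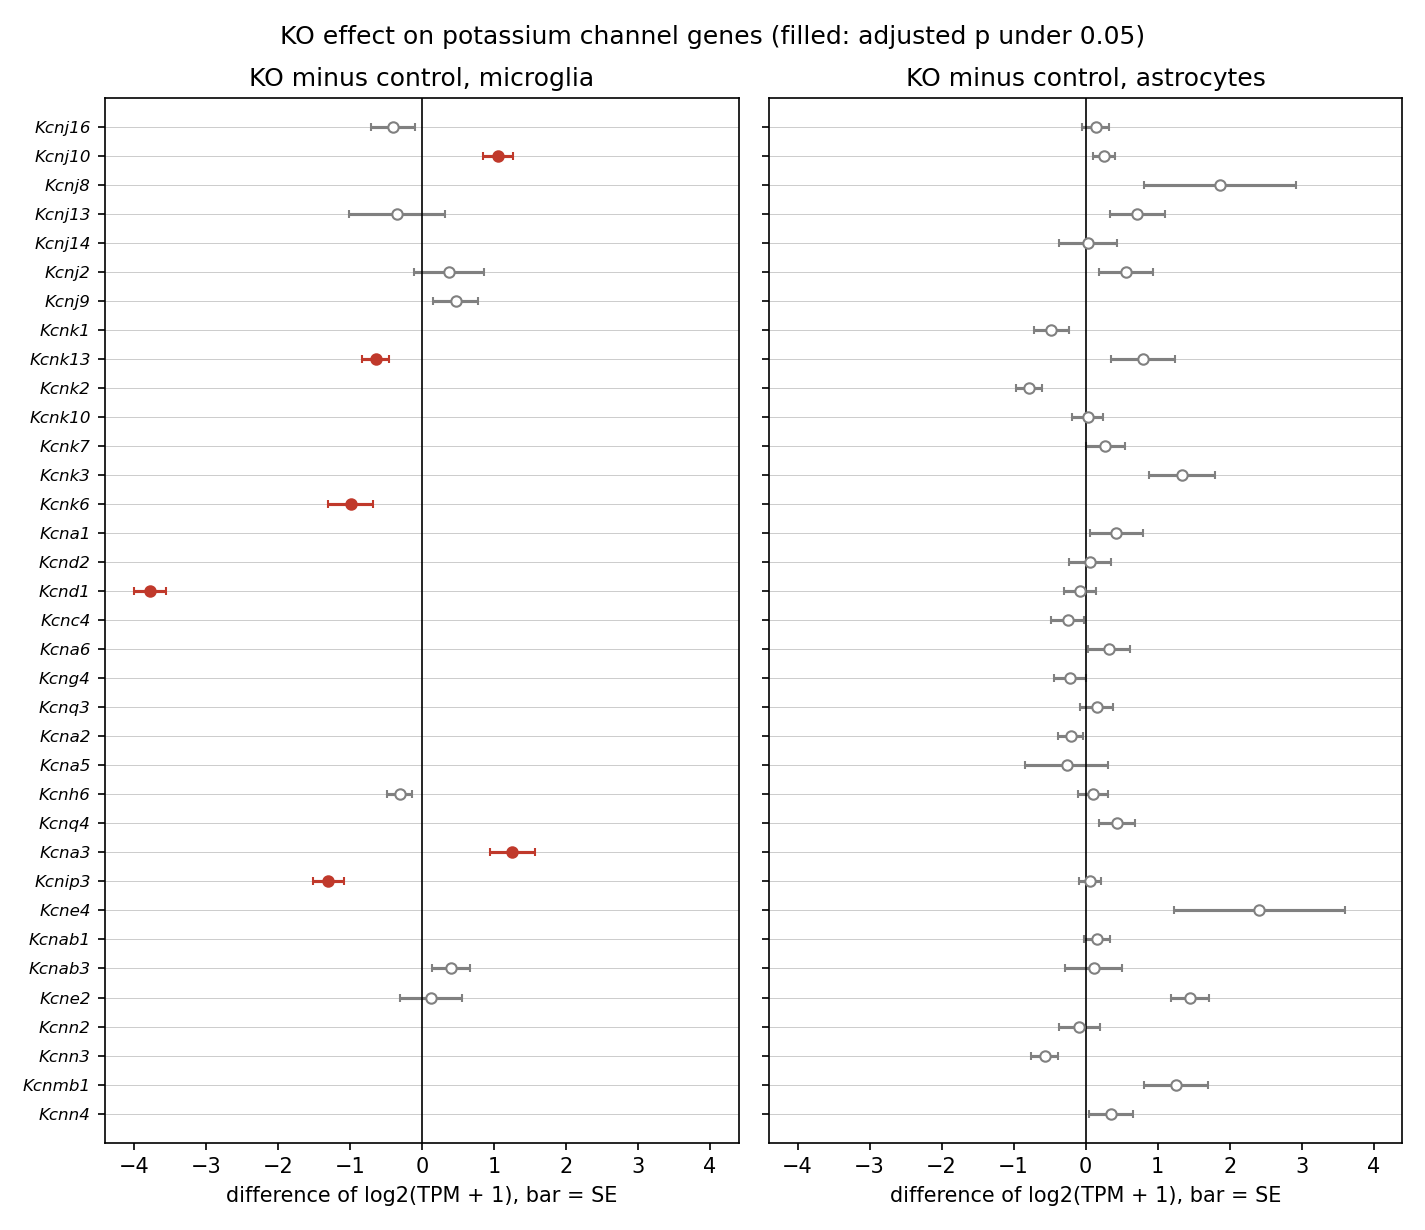
Log2 difference, KO minus control, of each tested potassium channel gene in microglia (left) and astrocytes (right) on the log2(TPM + 1) scale, with bars for the SE and filled points for adjusted p under 0.05. The 6 filled genes are all in microglia, Kcnd1 at -3.78 lying farthest from 0, and in astrocytes Kcne4 (2.41) and Kcnj8 (1.87) have the largest differences and wide errors.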

How the data were processed

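RNA of sorted microglia and astrocytes was sequenced with 61 bp paired reads, per the labels' protocols. The authors deposited TPM values, 1 file per library with 1 decimal, so the depth per value is unknown and no counting interval is given. Per the submitters' processing notes, the mm10 build was used with STAR 2.6.1e and featureCounts 1.6.2, after Trim Galore 0.4.2 with cutadapt 1.9.1. Strand setting and treatment of multi-mapping reads are not given in the sources used here, so overlapping genes and close paralogs are uncertain.

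Samples were grouped by the cell type and genotype that their titles give. Values were analysed as log2(TPM + 1) with the moderated test of limma 3.58.1 (R 4.3.3; variance trend, two-sided), in genes reaching 1 TPM in 4 or more of the fitted libraries, with Benjamini-Hochberg adjustment over all of these and a threshold of 0.05. A fold change on this scale understates that of low genes. Scripts were tested on simulated data. Positions come from GENCODE M21 (GRCm38) and promoters from RefSeq (GRCm38.p6). Microglia and astrocytes with the same genotype and number come from the same animal by their titles, which pairs them (correlation of deviations between 0.0178 and 0.219 over the 8 pairs). Always named were Kcnj10, Kcnj16, Kcnk1, Kcnk2, Kcnk6, Kcnk13, Kcnj2, Kcna3, Kcnn4, Kcnd1 and Kcnma1, and further every member past the threshold between genotypes and the 8 largest called differences each way between cell types with a mean of at least 2 TPM. Other members were named after their values were seen. Members and lists were chosen with earlier results of these data known. Python 3.11.15, pandas 2.3.3 and matplotlib 3.10.9 were used.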

Additional observations from a re-analysis of the deposited data

Results flagged for a closer look

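Of 86 groups of values of described members checked for a single library far from the rest, 4 had one, where chance gives about 5% of groups. Kcna1 stood out at 128.5 TPM and Kcna6 at 16.2 TPM in KO astrocyte library 4, which also had the highest summed oligodendrocyte markers. Kcnk1 stood out at 4.2 TPM in control microglia library 2, which also had the highest summed choroid plexus markers and the highest summed ependymal markers of the microglia libraries. Kcnn3 stood out at 17.5 TPM in control astrocyte library 5, in a group whose other values lay between 16.2 and 16.5 TPM.

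The genotype effect differed between microglia and astrocytes, by the test of that difference with limma, for 6 members, against 15.5% of all genes. On the log2 scale, as the effect in microglia minus that in astrocytes, Kcnd1 differed by -3.70, Kcnip3 by -1.36, Kcnn4 by -1.27, Kcnk6 by -1.06, Kcnj10 by 0.80 and Kcnk2 by 0.78. With the block by animal Kcnk2, Kcnn4 and Kcnk6 lost their calls (adjusted p 0.0772, 0.0820 and 0.0708). Kcnj10 kept its call with that block and lost it in 17 of 29 alternative fits, while Kcnd1 and Kcnip3 kept theirs in all 29.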

How the results depend on the processing

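For 41 member results 912 alternative values were computed, of which 807 kept direction and side of the threshold, 79 lost a call, 11 gained one and 15 changed direction. Called members numbered 6 in microglia, between 4 and 6 without single libraries, and 23 between cell types in each fit without 1 library, but 15 with a filter at 5 TPM, where 15 members were tested. In astrocytes the fit over all groups called 1 member instead of 0. The 6 calls in the difference of genotype effects became 3 without a filter, 3 with controls without Y-linked RNA alone, 2 with KO astrocyte libraries 2 and 4 alone, and between 3 and 7 without single libraries, 3 of them without KO astrocyte library 3. The cause was not tested.

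Direction changed as follows. Kcnj2 in microglia had -0.18 with array weights, -0.61 against controls with Y-linked RNA alone, and between -0.024 and 0.75 without single libraries. Its difference of effects was 0.055 with quantile normalization, 0.88 against controls without Y-linked RNA, and between -0.59 and 0.19 without single libraries. That of Kcnk1 was -0.16 against controls without Y-linked RNA and -0.0047 with KO astrocyte libraries 2 and 4 alone. In astrocytes Kcnd1 had 0.12 against controls without Y-linked RNA, 0.068 with KO astrocyte libraries 2 and 4 alone, and between -0.24 and 0.020 without single libraries, and Kcnj16 had between -0.022 and 0.30 without single libraries.

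The replicate number as a block pairs different animals between genotypes: it called 2079 genes in microglia, against 3711 without it, with 5 of the 6 members kept there (Kcnk13 lost, adjusted p = 0.0611) and 0 members called in astrocytes. Correlations of same-numbered KO and control libraries lay between -0.0918 and 0.185. Pairing by animal called the same 23 members between cell types. In the difference of effects it called 4, keeping Kcnd1, Kcnip3 and Kcnj10, losing Kcnk2, Kcnk6 and Kcnn4 and gaining Kcnk13. Quantile normalization moved the median of all genes between cell types to 0.11 and called 24 members, 6 higher and 18 lower in microglia; Kcnmb1 was then lost and Kcnn4 and Kcnh6 were gained as higher.

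Values under 0.05 TPM are listed as 0, and with no depth per library a value near 1 TPM has no counting error attached.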

Other observations

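The library in no group had a summed 145.5 TPM of potassium channel genes, with 9 members at 1 TPM or more. Kcnd1 was at 44.3 TPM, Kcnk13 at 42.4 TPM, Kcnk6 at 30.9 TPM, Kcnj2 at 8.4 TPM and Kcnip3 at 8.2 TPM. Kcnj10 was at 0.3 TPM, Kcnk1 at 0.3 TPM and Kcnj16 at 0.6 TPM.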
